A study of Rattus norvegicus with 18 samples.

Results

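The data described here are 464 genomic segments that the authors listed, with identical chromosome, start and end, in both of their sex comparisons of control fetal rat germ cells. The first comparison set males at gestational day (GD) 16 against females at GD16, and the second set males at GD18 against the same GD16 females. On each of these segments the methylation level is therefore given for GD16 males, GD18 males and GD16 females. The segments were chosen by their measured differences, since a listed segment had at least 5 CpGs and a difference of at least 10 percentage points between group means in each table. Their directions and levels are for that reason a description, and no test was made on them. They were 464 of the 48127 segments of the GD16 table (0.964%), 464 of the 1618 of the GD18 table (28.7%) and 464 of the 59711 distinct segments in the 4 full tables of the series.

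The germ cells came from transgenic Sprague-Dawley rats in which a green fluorescent protein is expressed in germ cells (GCS-EGFP), and were purified by fluorescence-activated sorting. Methylation was read by bisulfite sequencing after hybrid capture of a commercial panel of rat target regions, in 18 samples. All samples share the transgene and the strain. The 3 groups that define the segments came from dams whose control diet had 18% of its kcal as fat, namely 4 samples of GD16 males, 3 of GD16 females and 4 of GD18 males, and 4 samples of GD16 males and 3 of GD16 females came from dams on a high-fat diet (HFD) with 45%. Each diet group had 5 dams, and day 0 was the day of a sperm-positive smear. No label says if the samples of a group are from separate litters, and the sorted cells could not be checked against marker genes because the tables hold no expression.

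The levels below are the authors' group means over the CpGs of a segment, in percent, taken from the authors' deposited tables. Values per sample, read counts and coverage were not used here, so the depth behind a level and its spread between samples are unknown. In a pool of cells, a lower level in each cell and a smaller share of methylated cells cannot be told apart. The GD18 comparison changes day and sex together. A set of 4 samples is described as re-analysed from another project without a statement of which group it forms, so project and group cannot be told apart for the groups of 4.

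As background, mammalian germ cells lose most of their CpG methylation while they settle in the fetal gonad, a process studied mainly in the mouse. Male germ cells then regain methylation before birth, whereas female germ cells regain it after birth as oocytes grow. Imprinted genes are erased in the same period and are later marked again according to the sex of the parent.

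Segments that the deposited annotation placed at promoters are introduced first by sequence, since a promoter is where methylation is most often read in relation to a gene. Of the 13 such segments, 8 had a promoter window in the RefSeq table of the GRCr8 build, and 4 are shown because they cover each pattern described below. Stoml3, a stomatin-like membrane protein required for touch sensation in the mouse, was higher in males on both days. Magebl1, an X-linked member of the MAGE family, and Shisa7, an auxiliary subunit of GABA-A receptors, were higher in GD16 males but lower in GD18 males than in females. Mrnip, which works with the MRN complex of DNA repair, was higher in females than in either male group. Each window runs 5′ to 3′ on the gene's strand from 250 bases before to 50 bases after the annotated start. The letters CG, the kind of site at which these levels were measured, are in capitals. Which of the printed sites were measured is not known.
Stoml3: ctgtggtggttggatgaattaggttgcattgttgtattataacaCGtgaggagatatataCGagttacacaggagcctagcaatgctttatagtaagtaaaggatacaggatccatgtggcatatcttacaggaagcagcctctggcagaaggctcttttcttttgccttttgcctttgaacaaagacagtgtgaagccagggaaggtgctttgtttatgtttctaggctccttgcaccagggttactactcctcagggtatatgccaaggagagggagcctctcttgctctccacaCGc
Magebl1: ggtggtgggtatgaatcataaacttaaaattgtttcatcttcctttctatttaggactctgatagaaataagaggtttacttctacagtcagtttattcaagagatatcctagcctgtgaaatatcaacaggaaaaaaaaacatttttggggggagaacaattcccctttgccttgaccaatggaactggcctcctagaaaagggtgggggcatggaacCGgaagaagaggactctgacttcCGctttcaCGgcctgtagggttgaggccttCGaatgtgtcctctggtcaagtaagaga
Shisa7: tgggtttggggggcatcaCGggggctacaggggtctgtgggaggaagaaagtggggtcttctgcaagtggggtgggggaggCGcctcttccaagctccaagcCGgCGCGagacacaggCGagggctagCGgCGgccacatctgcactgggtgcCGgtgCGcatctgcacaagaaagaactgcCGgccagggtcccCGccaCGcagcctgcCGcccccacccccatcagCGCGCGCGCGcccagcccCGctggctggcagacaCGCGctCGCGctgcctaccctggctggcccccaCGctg
Mrnip: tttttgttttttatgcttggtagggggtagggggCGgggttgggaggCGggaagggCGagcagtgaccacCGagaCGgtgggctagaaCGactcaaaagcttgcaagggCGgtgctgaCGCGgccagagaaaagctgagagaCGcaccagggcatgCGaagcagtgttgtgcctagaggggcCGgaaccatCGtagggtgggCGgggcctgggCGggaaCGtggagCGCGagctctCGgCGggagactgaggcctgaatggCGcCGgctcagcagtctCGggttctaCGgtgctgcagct
The windows lie in GRCr8 at chr2:139722720-139723019 on the plus strand (Stoml3), chrX:60546580-60546879 on the minus strand (Magebl1), chr1:78022581-78022880 on the plus strand (Shisa7) and chr10:35002251-35002550 on the plus strand (Mrnip). They hold 3, 4, 25 and 24 CG sites, in that order, a motif that reads the same on both strands. Over 33469 RefSeq promoters of 300 bases, 94.5% held at least 1 CG and the median was 7, with quartiles of 3 and 19. The Stoml3 and Magebl1 windows were thus below the median (CG-poor) and the Shisa7 and Mrnip windows above the upper quartile (CG-rich). No source used here names the build of the authors' coordinates, so the exact place of a segment relative to its window is unknown. The Stoml3 and Magebl1 segments hold 6 and 5 CpGs, more than the 3 and 4 CG sites of their windows. Unless the builds differ there or a site was counted more than once, neither lies wholly inside its window. The Shisa7 segment, of 429 bp, is longer than its window of 300 bases.

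The 464 segments fell into 3 of the 4 possible directions. In 96 segments (20.7%) both male groups stood above the females, and these are called male-higher. In 217 (46.8%) GD16 males stood above and GD18 males below the females, and these are called crossover segments. In 151 (32.5%) both male groups stood below the females, and these are called female-higher. No segment was lower in GD16 males and higher in GD18 males. The whole GD16 table was almost entirely higher in males (99.7% of 48127 segments), whereas 7.54% of the 1618 segments of the GD18 table were.

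Set against those tables, the shared segments took very unequal shares of each direction. They held 313 of the 47962 male-higher segments of the GD16 table (0.653%) but 151 of its 165 female-higher segments (91.5%). From the GD18 table they held 96 of the 122 segments higher in GD18 males (78.7%) and 368 of the 1496 lower ones (24.6%). The 2 comparisons share the 3 control female samples, so these shares are not independent of each other, and the female mean was identical in both tables for 464 of 464 segments. The 14 female-higher segments that the GD18 table did not list had female means from 10.4 to 72.4%, and 13 of them were under 20%.

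**Figure D1:**
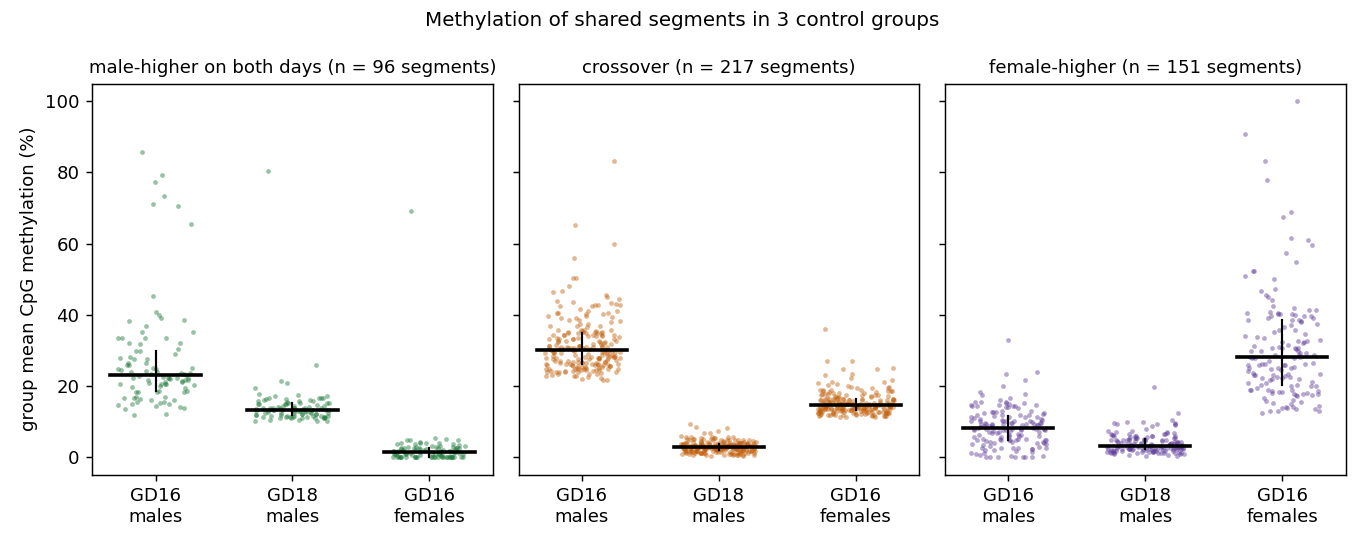
Group mean CpG methylation (percent, y axis) in GD16 males, GD18 males and GD16 females for the 96 male-higher, 217 crossover and 151 female-higher segments; each point is 1 segment, horizontal lines are medians and vertical lines run between the quartiles. GD18 males had medians of 13.2, 2.7 and 3.1% in the 3 panels, and females 1.25, 14.5 and 28%.

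The plot of levels shows how differently the 3 directions were built. At male-higher segments the authors' means had medians of 22.9% in GD16 males (quartiles 18.6 and 29.9%), 13.2% in GD18 males (11.8 and 15.1%) and 1.25% in females (0 and 2.5%). The female mean was exactly 0 at 28 of these 96 segments. Crossover segments had medians of 30.1% in GD16 males (26.2 and 34.9%), 2.7% in GD18 males (1.8 and 3.7%) and 14.5% in females (13.3 and 16.3%). Female-higher segments had 8.1% in GD16 males (4.7 and 11.6%), 3.1% in GD18 males (2.2 and 5.2%) and 28% in females (20.2 and 38.5%). Females thus ranged from almost unmethylated in the first class to a level of at least 50% at 15 segments of the last, and GD18 males had the lowest median of the groups in the crossover and female-higher classes.

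Many segments sat close to the 10-point limit of listing. The GD18 difference was within 2 points of it at 59 of the 96 male-higher segments (61.5%) and 129 of the 217 crossover segments (59.4%), against 9 of the 151 female-higher ones (5.96%). Just inside it, an intergenic segment on chromosome 1 (214780761 to 214781258) had authors' means of 13.8% in both male groups and 3.7% in females, a difference of 10.1 points in each table. Another on chromosome 1 (130616116 to 130616226) had 28.6% in GD16 males, 3.8% in GD18 males and 13.9% in females, with a GD18 difference of -10.1 points. Segments just outside the limit were not analysed here.

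The 3 named male-higher segments with the widest gap between the male days were shorter than the class median of 185 bp. Their few CpGs were not particular to them, since the class median was 5. An exon of Scn2a, a neuronal sodium channel (chromosome 3, 51790116 to 51790255, 5 CpGs), had authors' means of 79.2% in GD16 males, 13.3% in GD18 males and 0% in females. An intron of Abcc5, an ATP-binding cassette transporter (chromosome 11, 84463600 to 84463678, 8 CpGs), stood at 73.4, 11.1 and 0% in the same order. An exon of Cnga1, a cation channel of rod photoreceptors (chromosome 14, 38170518 to 38170613), had 77.2, 16.6 and 0.7%. In each of these 3, GD16 males were mostly methylated, GD18 males weakly and females hardly at all.

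A second tier of male-higher introns had lower GD16 levels and the same order. Wipf2, an actin regulator that interacts with WASP proteins, had 40.7% in GD16 males, 11.5% in GD18 males and 0% in females. Jph3, a junctophilin that ties the plasma membrane to the endoplasmic reticulum, had 39.8, 11.6 and 0%. Gnpat, an enzyme of ether lipid synthesis, had 38.5, 11.1 and 1.0%. Their GD18 levels, like the 11.1% of Abcc5, lay within 2 points of the lowest that the 10-point limit allows. The choice of segments therefore bears on this closeness, although their GD16 levels were far lower than that of Abcc5. Atp1b3, a subunit of the sodium-potassium pump (39.1, 13.7 and 1.7%), and Rcan1, an inhibitor of calcineurin (35.1, 13.2 and 1.9%), completed the 8 named segments with the widest gap between male days in this class. An exon of Wdr70 had 33.3, 14.4 and 0%.

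Other male-higher segments were named for a wide gap between GD18 males and females, and their male groups differed by less than at the genes above. Leo1, part of the Paf1 complex of transcription (intron, chromosome 8, 82387827 to 82387874), had 12.1% in GD16 males, 25.9% in GD18 males and 0% in females. It was the only male-higher segment in which GD18 males stood at least 10 points above GD16 males. Dgat2, an enzyme of triglyceride synthesis, had 16.6% and 15.9% in the male groups and 1.8% in females. The male groups were also close at Hunk, a protein kinase gene, with 20.1% and 16.2% against 2.5% in females. Nup93, a component of the nuclear pore, had 21.3 and 16.6% against 1.6%, and Abcb10, a mitochondrial transporter, 24.6 and 16.3% against 2.2%. The X-linked Mageb4, another MAGE family gene, had 29.0, 17.3 and 0.9% in an intron (chromosome X, 61150337 to 61150604).

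Segments without a gene name, picked here after their values were seen, extended the male-higher range. A pair of intergenic segments on chromosome 10 had 71.0, 21.4 and 1.6% (20811910 to 20812032) and 70.5, 16.5 and 2.9% (16162619 to 16162686) in GD16 males, GD18 males and females. The segment with the most CpGs of the class, 22 over 317 bp on an unplaced scaffold, differed from all the rest with 85.7, 80.3 and 69.3%. It was the only male-higher segment in which females reached 50%.

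**Figure D2:**
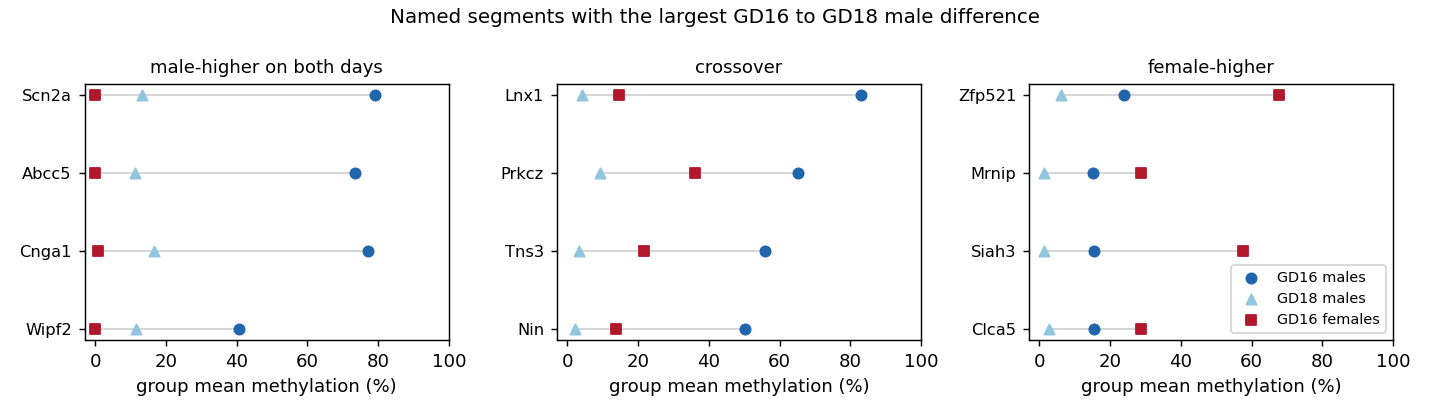
Group mean CpG methylation (percent, x axis) of the 4 named segments per direction with the widest gap between GD16 and GD18 males; circles are GD16 males, triangles GD18 males and squares GD16 females. Females lie at the left end in the male-higher panel (Scn2a, 0%), between the male groups in the crossover panel (Lnx1, 14.5%) and at the right end in the female-higher panel (Zfp521, 67.6%).

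The plot of named segments sets these against the crossover segments, in which the female level lies between the male days by construction. Because each crossover segment had to pass both 10-point limits in opposite directions, its GD16 and GD18 male means had to differ by at least 20 points. Lnx1, a ubiquitin ligase that acts on Numb, had the widest gap of all 464 segments, with 83.1% in GD16 males, 4.2% in GD18 males and 14.5% in females (intron, chromosome 14, 36138033 to 36138250). An intron of Prkcz, an atypical protein kinase C (chromosome 5, 172705563 to 172705650), had 65.1, 9.3 and 36.0%. The 36.0% is the highest female level of the class.

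Signalling and cytoskeletal genes were among the other crossover segments. Tns3, a tensin of focal adhesions, held 3 of them, the most at any gene. The first (88714504 to 88714590 on chromosome 14) had 56.0% in GD16 males, 3.2% in GD18 males and 21.7% in females. Its other segments, chosen after their values were seen, had 31.0, 5.7 and 16.8% over 17 CpGs (88735253 to 88735675) and 29.4, 5.5 and 16.5% (88824703 to 88824956). The order of the groups is the same at all 3 because it defines the class. Nin, a centrosomal protein gene, had 50.2, 2.3 and 13.8%. Ldlrad4, a negative regulator of TGF-beta signalling, had 46.6, 4.8 and 15%, and an exon of the zinc finger gene Rbak 46.3, 4.1 and 17.9%. In all 3 of these, GD18 males were under 5%.

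Other crossover segments were named for a wide gap between GD18 males and females, with female means from 17.9 to 24.8%. The 3′ UTR of Gna12, a G protein alpha subunit, had 40.4% in GD16 males, 3.2% in GD18 males and 18.8% in females. Cby1, an antagonist of beta-catenin, had 35.8, 2.4 and 23.2% over 10 CpGs of an intron. Bpifb4 had 36.8, 6.8 and 24.8% in an exon. Parpbp, a PARP1-binding regulator of recombination, had 33.1, 2.2 and 19.5%. Rxfp1, the relaxin receptor, had 30.8, 2.2 and 17.9%. The transcript end of Trim71, an RNA-binding ubiquitin ligase of early development, had 43.5, 7.2 and 22.3%. Females lay nearer to the GD16 males than to the GD18 males at Cby1, Bpifb4, Parpbp and Rxfp1, and nearer to the GD18 males at Gna12 and Trim71.

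The 2 shared segments with the most CpGs were crossover segments. An intergenic segment of 36 CpGs on chromosome 9 (46951699 to 46952283) had 30.4% in GD16 males, 1.9% in GD18 males and 12.3% in females. Mapre2, a microtubule end-binding protein gene, had 33.1, 3.0 and 13.2% over 32 CpGs and 1185 bp. A short intergenic segment on chromosome 11 (27320608 to 27320712) had 60.0, 0.7 and 27.0%. All 3 were chosen after their values were seen.

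Female-higher segments reached the top of the scale in females while both male groups were low. Zfp521, a zinc finger transcription factor (chromosome 18, 5140879 to 5140962, 5 CpGs), had 24.0% in GD16 males, 6.0% in GD18 males and 67.6% in females. Kazn, a gene for a protein of cell junctions, held 2 intronic segments, at 19.8, 9.1 and 59.6% (161017488 to 161017655 on chromosome 5) and 14.6, 2.9 and 52.4% (161029592 to 161029643). The transcript end of Siah3 had 15.3, 1.4 and 57.4%. GD16 males lay above GD18 males in each of these, although both were far below the females.

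Ion channel, receptor and signalling genes were also found here. An exon of Kcnd2, a voltage-gated potassium channel, had 12.5% in GD16 males, 4.5% in GD18 males and 54.9% in females. Fgfr4, a fibroblast growth factor receptor, had 7.7, 2.3 and 52.2% over 9 CpGs of an exon. Nos1ap, an adaptor of neuronal nitric oxide synthase, had 13.9, 2.5 and 47.2%. The 5′ UTR of Klhdc8a had 7.0, 4.3 and 50.0% in a segment of only 22 bp. Clca5 had 15.3, 2.6 and 28.7% in an exon. The male groups differed by 2.7 points at Klhdc8a and by 12.7 points at Clca5.

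Among unnamed female-higher segments, chosen after their values were seen, females reached 100% at an intergenic segment of 9 CpGs on chromosome 3 (62078638 to 62078845), with 14.4% in GD16 males and 2.7% in GD18 males. On chromosome 9 (37957663 to 37957702) the authors' means were 33, 9.6 and 90.9%, and on chromosome 8 (112202060 to 112202230) 4.8, 4.0 and 77.8%. An exception to the low GD18 level was an exon of Shc1, a signalling adaptor, with 0% in GD16 males, 10.4% in GD18 males and 28.7% in females. Hspa1l, a testis-expressed heat shock protein of the HSP70 family, had 0, 9.0 and 32.1%. In these last 2, also chosen after their values were seen, the GD16 males were the lowest group.

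Of the 183 genes named at the shared segments, 3 stood in the gene lists assembled for this tissue, and no share over all genes was computed beside these counts. The lists are not complete, so these counts describe the lists only. Apeg3, Hsf2bp and Kdm4a, for example, also held shared segments but stood in none of the lists. Of the 46 imprinted genes in the lists, Asb4, imprinted in the mouse, had 1 segment, which was female-higher with 3.5% in GD16 males, 1.8% in GD18 males and 15.2% in females. Of 22 genes of primordial germ cells and pluripotency, Prdm1, required for germ cell specification in the mouse, had 1, with 5.9, 3.6 and 18.8% over 13 CpGs of an intron. Of the 54 genes in the list for the germ line, meiosis and the piRNA pathway, only Mageb4 had a segment. The lists of 28 DNA methylation and chromatin genes and 20 somatic gonad genes had none. In total 187 segments carried a gene symbol, and 3 genes held more than 1 segment (Tns3, Tenm2 and Kazn).

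The gap between the male days was then examined over all segments. The authors deposited no comparison of GD16 with GD18 males, so it is the difference of 2 group means, with no error and no test. GD18 males stood below GD16 males at 431 of the 464 segments (92.9%), above at 31 and equal at 2. For crossover segments this direction was forced. Outside them it held at 90 of 96 male-higher segments (93.8%) and 124 of 151 female-higher segments (82.1%). The median gap was 10.1 points at male-higher segments (quartiles 4.9 and 16.3), 27.3 at crossover segments (23.4 and 32.3) and 4.6 at female-higher segments (0.8 and 7.2).

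**Figure D3:**
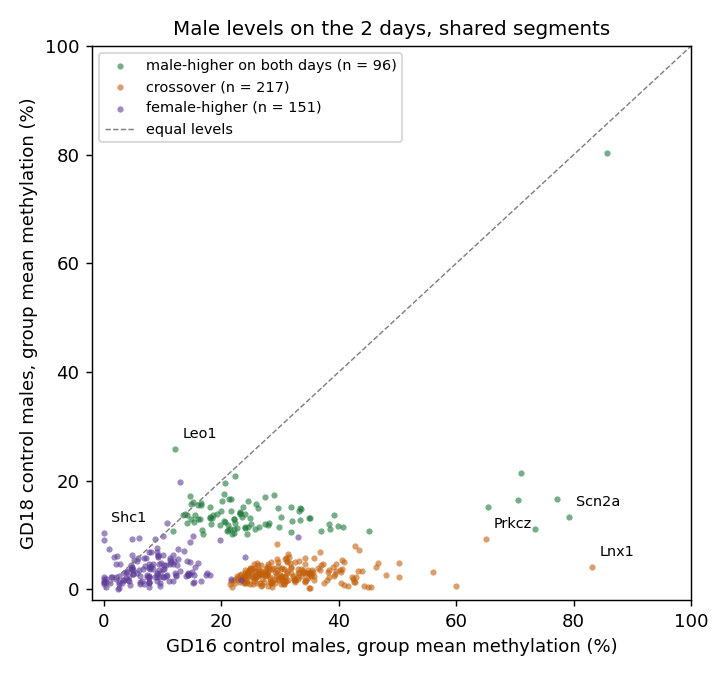
Group mean methylation of GD16 control males (x axis, percent) against GD18 control males (y axis, percent); each point is 1 of 464 segments, coloured by direction, and the dashed line marks equal levels. Nearly all points lie below the line (431 of 464), and Leo1 (12.1 against 25.9%) and Shc1 (0 against 10.4%) lie farthest above it.

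The plot of male levels shows a quartile range of 2.2 to 7.0% in GD18 males over all segments, against 11.8 to 31.1% in GD16 males, and the 10-point limits that chose the segments bear on both. GD18 males were under 5% at 308 segments (66.4%), which comprised 197 crossover and 111 female-higher segments and, by the choice of segments, no male-higher one. The gap was at least 30 points at 83 segments and at least 50 points at 9, of which 5 were male-higher, 4 crossover and 0 female-higher. GD18 males stood at least 10 points above GD16 males at 2 segments, Leo1 and Shc1. These gaps compare different days by definition, and day, litter and project of origin cannot be told apart in them.

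A crossover could occur only where females kept enough methylation to be undercut by 10 points. Of the 47962 male-higher segments of the GD16 table, 867 (1.81%) had a female mean of at least 11.2%, the lowest among crossover segments. Of these 867, 217 (25%) were crossover segments. Male-higher segments of the GD16 table that were not shared had median levels of 19.5% in males and 4.7% in females, so most lay below the female level from which a listed fall was possible. A further 30 segments of the GD18 table overlapped a GD16 segment without matching its ends, and each of the 30 also had the crossover order.

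In size the shared segments were shorter and held fewer CpGs than the GD16 table as a whole. The median length was 178.5 bp against 442 bp in the GD16 table and 218 bp in the GD18 table. The class medians were 185 bp for male-higher, 225 bp for crossover and 138 bp for female-higher segments. Exactly 5 CpGs, the smallest number listed, were held by 156 shared segments (33.6%), against 15% of the GD16 table and 28.9% of the GD18 table. This share was 55.2% of male-higher, 21.7% of crossover and 37.1% of female-higher segments. CpGs were densest in the female-higher class, with a median of 4.49 per 100 bp against 3.03 and 3.33 in the male-higher and crossover classes. The medians of the GD16 and GD18 tables were 2.21 and 3.24 per 100 bp.

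The deposited annotation placed the classes at different features. Introns held 54 of the 96 male-higher segments (56.2%), against 21.7% of crossover and 19.9% of female-higher segments. Over whole tables they held 37.0% at GD16 and 29.9% at GD18, but 53.3% of the GD18-table segments higher in males, most of which are the male-higher segments themselves. Intergenic sequence held 31.2% of male-higher, 63.6% of crossover and 59.6% of female-higher segments, against 49.1 and 54.3% of the tables. The crossover and female-higher classes were therefore mostly outside genes, and the male-higher class mostly inside introns. No test was made of these shares.

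**Figure D4:**
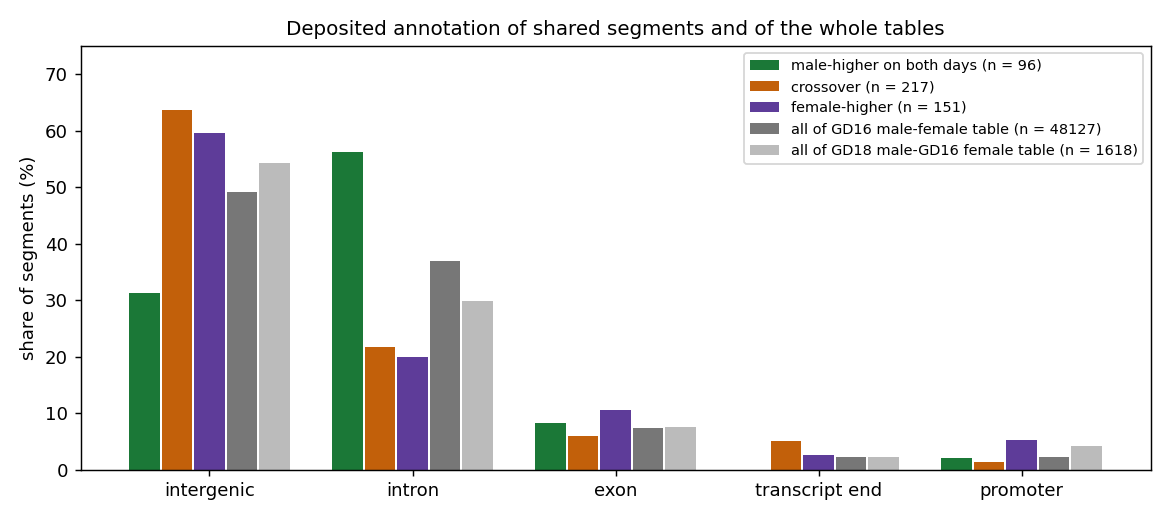
Share of segments (percent, y axis) that the deposited annotation places at each feature, for the 3 directions and for all segments of the GD16 and GD18 tables; bars start at 0. Male-higher segments have the tallest intron bar (56.2%) and the shortest intergenic bar (31.2%).

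Besides introns and intergenic sequence, the plot of annotation shows smaller features. Exons held 37 segments (7.97%), close to the 7.29 and 7.54% of the tables. Transcript ends held 15 segments (3.23%, against 2.21 and 2.22% of the tables), of which 11 were crossover and 4 female-higher. Promoters held 13 segments (2.8%, against 2.29% of the GD16 table and 4.2% of the GD18 table), of which 8 were female-higher, 3 crossover and 2 male-higher. Repeats held 17 segments (3.66%), 10 of them SINEs, against 3.7 and 4.51% of the tables. The X chromosome held 6 segments (1.29%), against 1.09 and 1.11%.

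The female-higher promoters had low levels in both male groups. Mfhas1 had 4.8% in GD16 males, 9.2% in GD18 males and 37.3% in females. Mrnip had 15.1, 1.2 and 28.7%. Cpne3, a copine that binds phospholipids, had 14.3, 3.0 and 29.9%. Lower female levels were found at Ssbp4 (6.4, 1.6 and 25.4%), at Tead1, a transcription factor of the Hippo pathway (9.3, 2.2 and 22.3%), and at Me2, a mitochondrial malic enzyme (4.9, 2.8 and 17.5%). Chek1, a checkpoint kinase of the DNA damage response, had 0, 0.9 and 15.4%, and Gnb5, a G protein beta subunit, 2.4, 0.1 and 13.5%. GD18 males were under 10% at each of the 8.

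Promoters of the other classes had higher GD16 male levels. The Stoml3 segment (chromosome 2, 142716559 to 142716698, 6 CpGs) had 35.0% in GD16 males, 13.1% in GD18 males and 0% in females. An unnamed promoter on chromosome 5 (160071094 to 160071175) had 23.5, 13.4 and 0%. Among crossover promoters, Magebl1 (chromosome X, 60942822 to 60943178) had 29.3, 2.4 and 16.3% and Shisa7 (chromosome 1, 72544397 to 72544825) 27.6, 3.9 and 16%. These levels were near the crossover medians.

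CpG islands, stretches dense in CpGs that are usually unmethylated, held 8 segments (1.72%), all intergenic, against 0.291% of the GD16 table and 1.24% of the GD18 table. An island was counted only where the deposited detailed annotation of a segment began with that label, so islands labelled otherwise would be missed. Promoter segments as dense as Mfhas1 (25.71 CpGs per 100 bp) and Tead1 (23.33) did not carry it. Of the 8 segments that carried it, 5 were female-higher and 3 crossover. Female levels were highest at an island on chromosome 2 (150728984 to 150729031), with 10.6% in GD16 males, 2.5% in GD18 males and 40.6% in females. The crossover islands had 42.6, 1.4 and 18.1% on chromosome 14 (2721065 to 2721147), 30.6, 0.9 and 12.8% over 18 CpGs on chromosome 13 (89934739 to 89934845), and 23.2, 1.3 and 12.6% over 21 CpGs on chromosome 2 (161559850 to 161560029). GD18 males were under 2% at all 3 crossover islands.

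Only 2 pairs of segments lay within 10000 bp of each other, and each pair joined a crossover with a female-higher segment. On chromosome 14 the crossover island lay 4131 bp from a female-higher segment (2725279 to 2725379) with 9.8% in GD16 males, 4.8% in GD18 males and 83.3% in females. Each class had members on 21 chromosomes.

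Levels on the high-fat diet were available where a shared segment was also listed, with identical coordinates, in a diet comparison at GD16. These comparisons use the control groups that chose the segments, so the values are set side by side without a test of overlap. The HFD female table listed 65 of the 464 segments (14.0%), whereas it listed 0.299% of all GD16-table segments and 11.3% of all GD18-table segments. Of the 151 female-higher segments it listed 46 (30.5%), each lower on HFD. At these 46 the authors' means had medians of 30.9% in control females (13.8 to 90.9%) and 2.5% in HFD females (0 to 10.8%), beside 9.1% in GD16 males and 4.0% in GD18 males. The HFD female median was thus below those of both male groups at these 46 segments. Control females had been chosen there as at least 10 points above both male groups. A listed difference on HFD also had to be at least 10 points from those females. The choice of segments therefore bears on the low HFD levels and on this order. The same control females enter all of these differences, and the part of those 3 samples in the result was not tested.

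Examples from the HFD female table, chosen after their values were seen, spanned a range of functions. Kazn had 52.4% in control females and 4.3% in HFD females at its 52-bp segment. Cox4i1, a subunit of cytochrome c oxidase, had 41.8% and 1.5%. Msh3, a DNA mismatch repair protein, had 28% and 5.1%. All 3 HFD levels were below the GD16 male levels of 14.6, 12.9 and 9.4%. Shc1, at which GD16 males had 0%, had 28.7% and 0.7%. Ryr2, a calcium release channel, had 27.1% and 7.6%, and the intergenic segment on chromosome 9 with 90.9% in control females had 4.1% on HFD.

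Of the 217 crossover segments the HFD female table listed 17 (7.83%), with 16 lower and 1 higher in HFD females. The 16 had a median of 1.7% on HFD (1.1 to 11.7%). They included Magebl1 (16.3% to 1.3%) and Hsf2bp, a protein of meiotic recombination in the mouse (20.6% to 9.5%). The exception was the transcript end of Trim71, at 22.3% in control and 59.8% in HFD females. Of the 96 male-higher segments 2 were listed (2.08%), both higher on HFD, namely Wipf2 (0% to 17.8%) and Tbccd1 (0.7% to 20.3%). A listed fall requires at least 10% in control females, and the upper quartile of the female mean in this class was 2.5%. The direction at male-higher segments was thus nearly fixed by their choice.

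The HFD male table listed 26 of the 464 segments (5.6%), against 2.4% of all GD16-table and 3.65% of all GD18-table segments. The control males of this table also set the classes, so directions by class are a description. Of the male-higher segments 12 were listed, each lower on HFD, with medians of 34.2% in control males, 7.4% in HFD males (0.8 to 21.1%) and 13.2% in GD18 males. Of the crossover segments 11 were listed, each lower on HFD, with medians of 38.4% in control males, 11% in HFD males (3.8 to 29.7%) and 3.2% in GD18 males. Of the female-higher segments 3 were listed, each higher on HFD. A listed fall requires a control level of at least 10%, and the median of control GD16 males over all female-higher segments was 8.1%.

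**Figure D5:**
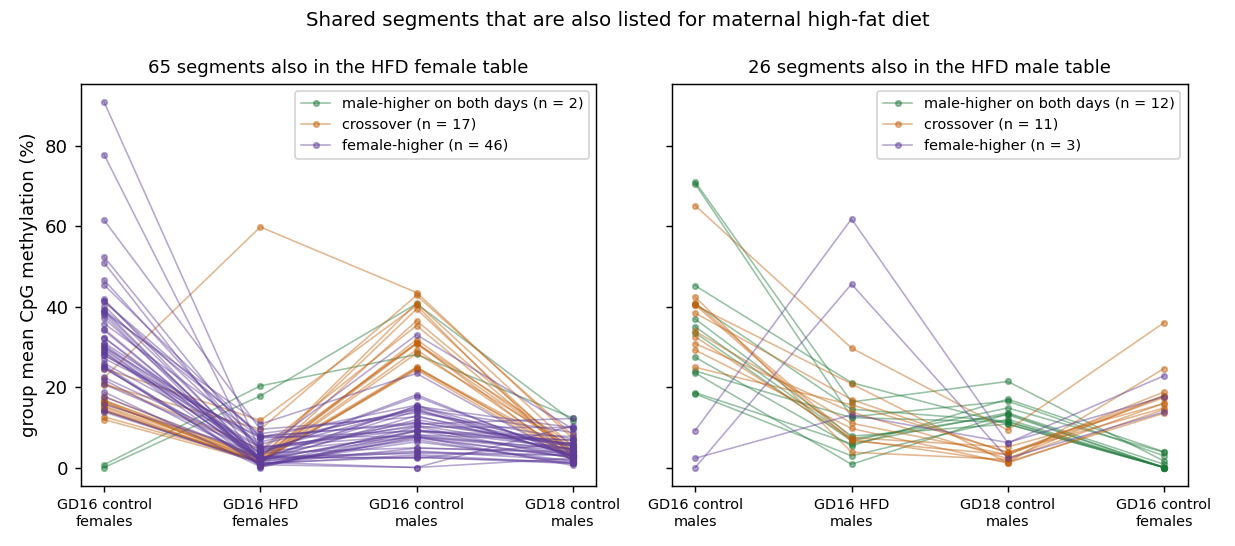
Group mean methylation (percent, y axis) of the 65 segments also in the HFD female table and the 26 also in the HFD male table, across 4 groups; each line joins the means of 1 segment and is coloured by direction. The 46 female-higher segments lie between 0 and 10.8% in HFD females, and 23 of the 26 segments of the male table are lower on HFD than in control males.

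The plot of diet groups includes named genes, again chosen after their values were seen. Prkcz had 65.1% in control and 29.7% in HFD males. Stoml3, whose promoter is printed above, had 35.0% and 7.1%. Wipf2 had 40.7% and 14.5% in males, the opposite direction to its difference in females. Gna12 had 40.4% and 6.6%, and Foxn3, a forkhead repressor, 33.9% and 11%. Acvr1b, an activin receptor, had 24.0% and 12.4%. The HFD male level stood above that of GD18 males at Prkcz (9.3%), Gna12 (3.2%), Wipf2 (11.5%), Foxn3 (3.2%) and Acvr1b (11.3%), and below it at Stoml3 (13.1%). These picked genes do not represent both classes. The HFD median was below the GD18 median at the 12 male-higher segments (7.4 against 13.2%). At the 11 crossover segments it was above (11 against 3.2%). The choice of segments bears on this contrast. GD18 males had to stand at least 10 points above females at male-higher segments. At crossover segments they had to stand at least 10 points below them.

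Higher levels in HFD males were found at an intron of Ppa2, a mitochondrial pyrophosphatase, with 9.2% in control and 61.8% in HFD males. An intergenic segment on chromosome 4 (175186861 to 175186930) had 0% and 45.6% in males, and 13.8% and 1.3% in control and HFD females. Another on chromosome 5 (78034403 to 78034495) had 2.3% and 13.1% in males, and 17.6% and 2.7% in females. The 2 intergenic segments thus differed with diet in opposite directions in the sexes. In all, 5 segments were listed in both diet tables, of which these 2 and Wipf2 had opposite directions and 2 were lower on HFD in both sexes. Without values per sample, whether any diet difference exceeds the spread between samples was not tested.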

How the data were processed

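Capture bisulfite libraries of sorted fetal rat germ cells were made from 18 samples in 5 groups. The submitters' processing notes list Bowtie2 and Bismark 0.19.0, and no source used here names the genome build. Per the series' design text, methylation was extracted per sample and locus, cut into segments with a stated minimum of 50 bp, and searched for differences; 25 of the 464 shared segments are shorter than that in the files. Per the file headers, each row holds a case and a control group mean of CpG methylation as a fraction (0 to 1) that the authors had averaged, and percents here are that fraction times 100. The authors also deposited the signed difference of both means, a score. The p-value and false discovery rate (FDR) of each segment were deposited by the authors; no source used here gives the unit of replication behind them, and they served only as a filter in an alternative. All listed FDRs are at most 0.05.

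Segments were joined on chromosome, start and end with Python 3.11.15 and pandas 2.3.3, the join was tested on simulated data, and figures were drawn with matplotlib 3.10.9. Since the tables hold group means without depth, no test was run, and no interval is given for a level. Tests planned for values per sample were not made. Symbols matched 187 of 204 segments with a transcript identifier through RefSeq genes of GRCr8, used for names and promoter sequences only.

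Named genes were, in each direction, the 8 named segments with the widest gap between GD16 and GD18 males and the 8 with the widest gap between GD18 males and GD16 females, every segment at a gene of the lists, and up to 12 segments each at promoters, 5′ UTRs and CpG islands. A result of this rule that is withheld is not reported here. Others are marked as chosen after their values were seen. The segments, the gene lists and this rule were chosen with earlier results of these data known. Alternatives were overlap in place of identity, a stricter FDR, a larger difference, more CpGs, autosomes alone and the other table's female mean.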

Additional observations from a re-analysis of the deposited data

How the results depend on the processing

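Of 54 alternative values, 34 stayed close to the reported one, 20 moved and 0 reversed. Counts and levels cannot change sign, so only the gap between male days outside the crossover class could have reversed. The other table's female mean was identical at all 464 segments, so that alternative could not move. A count was taken as moved beyond 1.5 times, and a median outside its 95% binomial interval over segments, which covers counting over segments only. Stricter listing removes segments by construction. With an FDR of at most 0.01 in both tables, 264 segments were left in all, 107 crossover and 77 female-higher. With a difference of at least 20 points in both tables, 65 were left, of which 0 were male-higher, 3 crossover and 62 female-higher. With at least 10 CpGs, 74 were left, of which 2 were male-higher, 59 crossover and 13 female-higher.

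With at least 10 CpGs, the male-higher medians rest on 2 segments and became 52.7% in GD16 males, 46.1% in GD18 males and 35.45% in females, with a gap between male days of 6.6 points. Crossover segments then had a GD16 male median of 27.5% and a gap of 24.7 points. Female-higher segments then had 2.2% in GD18 males, 23.2% in females and a gap of 2.3 points. Counting any overlap of 1 bp gave 494 segments, and a reciprocal overlap of 50% gave 464. The 30 additional ones at 1 bp were all crossover, the order that the directions of nearly all unshared segments would give.

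No paired analysis was possible because the deposited tables hold group means without values per sample, and leaving out single replicates was not run for the same reason. Depth is unknown, so how far it limits any level could not be computed.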

Other observations

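Females stood highest among the 3 control groups at 151 shared segments, and these were the segments at which most of the shared listings in the HFD female table fell (46 of 65). Over all 165 female-higher segments of the GD16 table the HFD female table listed 47 as lower on HFD (28.5%), and over the 1496 segments lower in GD18 males it listed 178 (11.9%). In every one of these comparisons the control females are one side, so the values are given without a test. The control female mean of a shared segment was equal in the HFD female table and the GD16 sex table at 57 of 65 segments and differed by up to 5.9 points at the rest. In males it was equal at 24 of 26 and differed by up to 1.9 points.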
